A study of Mus musculus with 16 samples.

Results

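Complement components were measured by single-cell RNA-Seq in mouse bone marrow stromal cell cultures of 4 genotypes. The 8 genes described here were chosen by name from 32285 genes in the count tables: C1qa, C1qb, C1qc, C3, C4b, Cfb, C3ar1 and C5ar1. Each of the 8 had at least 1 UMI (unique molecular identifier, the count of 1 captured mRNA molecule). The cultures were WT, Fgf23cKO, Dmp1KO and Dmp1KO/Fgf23cKO, from C57BL/6J mice of 12 weeks of age, grown for 21 days in osteogenic medium with 10 mM beta-glycerophosphate. Dmp1KO mice carry a global deletion of Dmp1, and Fgf23cKO mice lose the floxed first exon of Fgf23 through a Cre transgene under the Dmp1 promoter, which is active in late osteoblasts and osteocytes. In the cross that yields all 4 genotypes, every mouse carries the floxed Fgf23 alleles, WT and Dmp1KO mice without Cre, and the study's methods describe another cross for WT and Dmp1KO in which Fgf23 is not floxed and Cre is present. Cells of 3 cultures per genotype were tagged, sorted as live cells, pooled by genotype and captured in 1 droplet reaction per genotype, so that genotype and reaction cannot be told apart.

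Complement is a cascade of plasma and tissue proteins that marks cells and debris for removal and recruits phagocytes. C1q, built from 3 chains, recognises targets and starts the classical pathway through C4 and C2, factor B starts the alternative pathway, and both pathways cleave C3. The small fragments C3a and C5a act on G protein-coupled receptors of myeloid cells, and tissue macrophages are known as a main source of C1q, while C3, C4 and factor B are mostly known as liver products that stromal cells can also make.

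Counts were available for 15 of 16 samples, with 17793 cells, and 11 of them were tagged cultures, with 14577 cells, namely 3 of WT, 3 of Fgf23cKO, 2 of Dmp1KO and 3 of Dmp1KO/Fgf23cKO. The first Dmp1KO culture was not analysed here. The sample numbered 4 of each genotype holds untagged cells of the same pool, which were clustered with the others but did not enter the tests. Tagged cultures had 9518928 to 72482185 UMIs. The median number of UMIs per cell was 7137 to 7276 in WT, 29753 to 34988 in Fgf23cKO, 20017 to 22186 in Dmp1KO and 32378 to 33881 in Dmp1KO/Fgf23cKO, so that depth moved with genotype, and its part in the differences below was not tested except where values of cells thinned to 1300 UMIs are given. Pairs of samples of 1 genotype shared no cell barcode, and pairs across genotypes shared 0 to 6. Dmp1 was at 27.3 to 107.9 CPM (UMI counts of a gene scaled to the same total in each sum of cells) in WT, 7.55 to 65.0 in Fgf23cKO, 0.0 to 0.0477 in Dmp1KO and 1.32 to 2.16 in Dmp1KO/Fgf23cKO, while Fgf23 had 0 to 8 UMIs per tagged culture and cannot check the labels. The study's text gives 3 mice per genotype, but the labels do not tie a culture to a mouse, and p values measure the spread between these cultures.

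Cells were clustered without the complement genes. Of the tagged cells, 7063 were macrophage-like, 892 stromal (osteoblast lineage, with collagen genes), 1260 cycling and 244 osteoclast-like. Another 3279 cells, in clusters 2, 4 and 6, had macrophage markers, but their leading genes include a marker of osteoclasts or B cells (Mmp12, Dcstamp and Atp6v0d2, or Cd74 and MHC class II genes with Ighm, are among them), and they were kept out of the macrophage-like class. These clusters held 52.8% of Dmp1KO cells, compared with 0.848% of WT, 9.19% of Fgf23cKO and 5.39% of Dmp1KO/Fgf23cKO cells. The macrophage-like class itself was made up of different clusters in the 4 genotypes. Cluster 0 held 82.4% of it in WT, cluster 1 held 61.0% in Fgf23cKO, 52.4% in Dmp1KO and 83.2% in Dmp1KO/Fgf23cKO, and cluster 10 held 38.8% in Dmp1KO. Cluster 3 was the only cluster of this class in which every genotype gave at least 5% of the cells. All 10 macrophage markers were detected in the macrophage-like class of every genotype, with a summed level of 29847 to 30898 CPM in Dmp1KO and 33608 to 39521 CPM in the other genotypes. In the same cells, summed B cell markers were at 13.4 to 14.4 CPM in Dmp1KO and 0.21 to 2.1 CPM in the other genotypes, and summed markers of stromal cells were at 55.7 to 60.2 CPM in Dmp1KO and 123.1 to 363.9 CPM in the others. Osteoblast and osteocyte markers were also lower in Dmp1KO (11.7 to 13.4 CPM, others 60.7 to 102.5 CPM), while markers of adipocytes (142.9 to 209.4 CPM, others 27.2 to 88.1 CPM), cycling cells (250.5 to 296.5 CPM, others 179.4 to 197.7 CPM) and osteoclasts (252.4 to 301.3 CPM, others 120.5 to 239.2 CPM) were higher. The stromal class also differed in makeup. Cluster 9 held 25.8% of it in WT, 42.5% in Fgf23cKO, 55.2% in Dmp1KO and 46.9% in Dmp1KO/Fgf23cKO. Cluster 16 held 19.9%, 13.4%, 2.6% and 15.6% in the same order. In stromal cells, osteoblast and osteocyte markers were at 22829 to 44166 CPM in WT and 4535 to 10152 CPM in Dmp1KO (others 9473 to 34048 CPM). The part of these other markers and of the stromal makeup in the results was not tested.

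The C1q chain genes lie side by side on chromosome 4 of GRCm38 (GENCODE M21), all on the minus strand, with C1qb at 136880129 to 136886187, C1qc at 136889804 to 136893065 and C1qa at 136895917 to 136898803. C3 (57203970 to 57228136), C4b (34728380 to 34743882) and Cfb (34856374 to 34862518) lie on the minus strand of chromosome 17, C3ar1 (122847138 to 122856161) on chromosome 6 and C5ar1 (16246743 to 16259540) on chromosome 7, both also on the minus strand. Of the 8 genes, the RefSeq promoter table (GRCm38.p6) held C1qb, C1qc, C3, C3ar1 and C5ar1. The windows of 250 bases before to 50 after the start of C1qb, C1qc and C3 are printed because the chains shifted relative to each other between genotypes and C3 was lower in Dmp1KO than in WT. Capitals mark GAGGAA, the core of sites for the myeloid factor PU.1, in C1qb (30 bases before the start) and, on the opposite strand as TTCCTC, in C1qc (193 bases before the start), and TTGCNNAA, a core of C/EBP sites, in C3 (45 bases before the start). Starts are those of RefSeq. For C1qc, the GENCODE gene end at 136893065 lies upstream of the RefSeq start, inside the printed window.
C1qb, chr4:136886151-136886450, minus strand: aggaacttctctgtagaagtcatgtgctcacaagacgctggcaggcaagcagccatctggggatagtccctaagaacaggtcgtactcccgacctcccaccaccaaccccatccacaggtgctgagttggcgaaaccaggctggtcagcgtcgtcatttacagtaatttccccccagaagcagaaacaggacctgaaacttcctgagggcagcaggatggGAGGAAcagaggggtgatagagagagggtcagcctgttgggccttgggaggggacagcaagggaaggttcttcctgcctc
C1qc, chr4:136892865-136893164, minus strand: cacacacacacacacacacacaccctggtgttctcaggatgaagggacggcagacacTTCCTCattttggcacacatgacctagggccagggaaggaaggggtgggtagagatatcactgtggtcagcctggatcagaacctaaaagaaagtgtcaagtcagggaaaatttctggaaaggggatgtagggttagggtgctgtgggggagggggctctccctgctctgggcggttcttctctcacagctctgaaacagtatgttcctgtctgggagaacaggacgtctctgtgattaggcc
C3, chr17:57228087-57228386, minus strand: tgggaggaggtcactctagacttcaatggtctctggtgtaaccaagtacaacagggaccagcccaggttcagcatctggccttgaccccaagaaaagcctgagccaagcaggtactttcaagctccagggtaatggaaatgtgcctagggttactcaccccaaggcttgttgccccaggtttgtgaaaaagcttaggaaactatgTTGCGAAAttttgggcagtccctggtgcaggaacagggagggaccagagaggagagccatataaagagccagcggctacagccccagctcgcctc
On either strand, GAGGAA was found in 28.3% and TTGCNNAA in 10.8% of 32851 promoter windows of this length, and neither was found in the windows of C3ar1 and C5ar1. These matches describe letters in the windows only.

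The question of source was addressed first by comparing macrophage-like and stromal cells of the same culture. The C1q chains, C3 and both receptors were higher in macrophage-like cells, and C4b and Cfb were higher in stromal cells. Since the cells were clustered on the same counts, these differences are a description without a test. The median within-culture difference on the log2(CPM + 1) scale was 3.61 for C1qb, 3.83 for C1qc, 3.63 for C3ar1, 3.80 for C5ar1 and 1.88 for C3, each with the macrophage-like cells higher in 11 of 11 cultures, and C1qa was between 3.01 and 4.47 higher. C4b was higher in stromal cells in 9 of 11 cultures, with a median difference of -1.49, and Cfb in 10 of 11, with a median difference of -1.17.

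Of 775478 C1qa UMIs in tagged cells, 58.2% were in macrophage-like cells, 25.1% in clusters 2, 4 and 6, 13.3% in cycling cells and 1.04% in stromal cells. The shares were close to these for C1qb and C1qc, with 1.07% and 1.02% in stromal cells. C3, the component on which the pathways converge, had 2390 UMIs, of which 66.8% were in macrophage-like cells and 3.64% in stromal cells. C4b, the mouse C4 gene that yields active C4, had 197 UMIs, of which 165 (83.8%) were in stromal cells and 159 in cluster 13, a stromal cluster led by Ebf1, Pappa and Col3a1. Its near-identical copy C4a, with which it can share reads, had 55 UMIs. Cfb, the protease of the alternative pathway, had 96 UMIs, of which 49 (51.0%) were in stromal cells, and it overlaps Gm20547 and Mir6972 in the annotation. Only 34 of 892 stromal cells held a C4b UMI and 30 held a Cfb UMI, compared with 20 and 19 of 7063 macrophage-like cells.

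**Figure D1:**
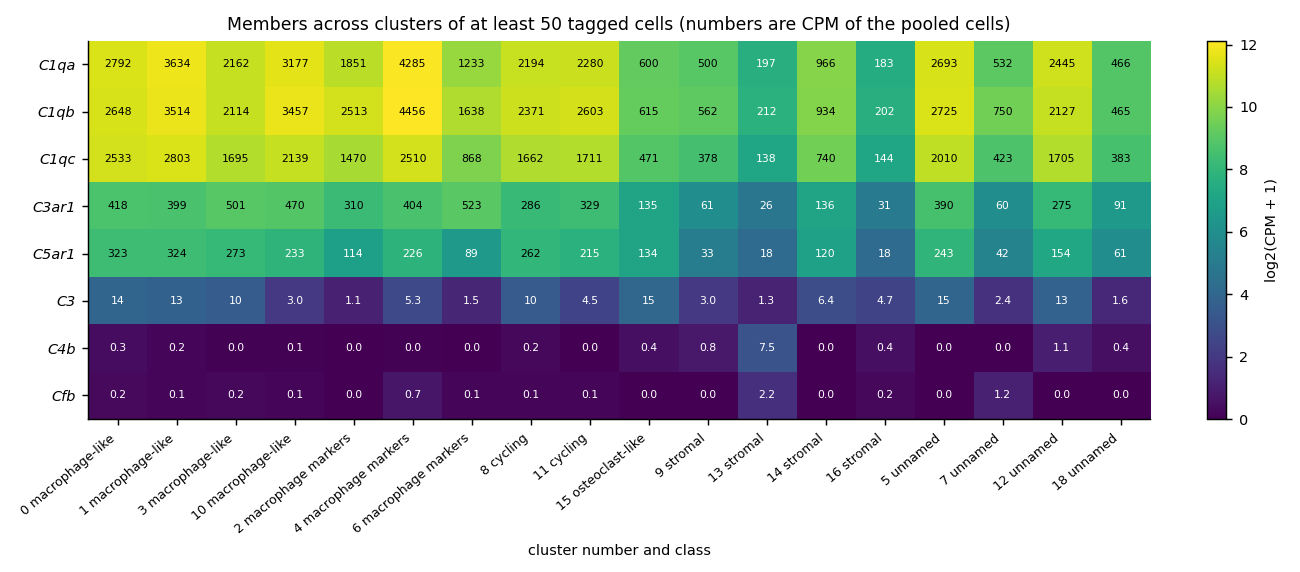
Level of the 8 members in each cluster of at least 50 tagged cells, as CPM of the pooled cells (numbers and colour, the colour on a log2(CPM + 1) scale), with clusters ordered by class. C1qa (4285.0 CPM) and C1qb (4456 CPM) are highest in cluster 4 and C1qc (2803 CPM) in cluster 1, C3 lies between 1.15 and 15.1 CPM in each cluster, and C4b is highest in stromal cluster 13 at 7.47 CPM.

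Among clusters of at least 50 tagged cells, the C1q chains varied together. C1qa ranged from 182.6 CPM in stromal cluster 16 to 4285.0 CPM in cluster 4. The 3 genes whose pattern over these 18 clusters was most like that of C1qa, by Pearson's r of log2(CPM + 1) among 11462 genes, were C1qc (r = 0.996), C1qb (r = 0.992) and P2ry6 (r = 0.982). Igf1 was among the nearest for both C1qb (r = 0.973) and C1qc (r = 0.984). C3ar1 was most like Irf8 (r = 0.985) and Clec4d, and C5ar1 most like Kcnk13 (r = 0.983), Nrros and Rps6ka1. The nearest genes of C3 were Pilrb1 (r = 0.927), Tfrc and Nfkbid, and those of C4b were Ebf3 (r = 0.962), Kcnc2 and Gm15987. Cfb had the least similar neighbours, with Cyp7b1 at r = 0.808, Masp1 and Ptx3. The clusters share libraries and differ in depth, so these coefficients are descriptions.

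Stromal cells held C1q UMIs in many cells, and this was read against macrophage markers in the same cells. The level of C1qa in stromal cells was 4.48 to 12.4% of that in macrophage-like cells of the same culture, with a median of 7.38%. The medians were 8.18% for C1qb, 6.99% for C1qc, 7.84% for C3ar1 and 6.84% for C5ar1. For 10 macrophage markers, the medians ran from 5.17% (Mrc1) to 10.5% (Fcer1g). C1qa, C1qb, C1qc and C3ar1 lay within the range of these markers in 11 of 11 cultures and C5ar1 in 8 of 11. Per cell thinned to 1300 UMIs, a C1qa UMI was found in 12.8 to 32.0% of stromal cells (49.0 to 86.8% without thinning) and in 86.7 to 97.2% of macrophage-like cells (95.2 to 100.0% without thinning), with 83 shallower stromal cells left out. C3 was found in 0.803 to 2.86% of macrophage-like and 0.0 to 1.79% of stromal cells after thinning (9.22 to 22.1% and 0.0 to 15.1% without it), which leaves no order to be read for single cells. Whether the UMIs of the chains and receptors in stromal cells came from these cells was not tested.

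**Figure D2:**
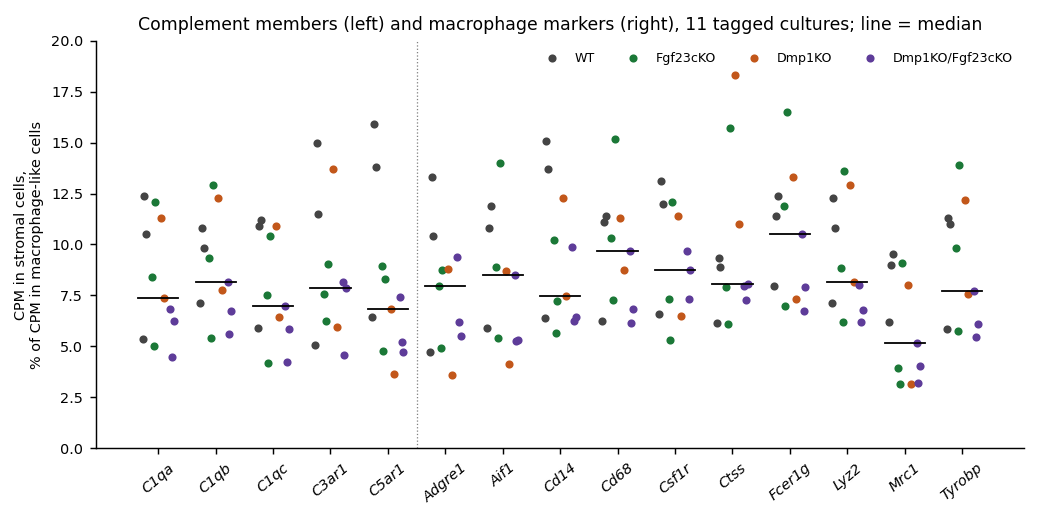
Level in stromal cells as a percentage of the level in macrophage-like cells (y axis, %), for 5 complement members left of the dotted line and 10 macrophage markers right of it, with 1 point for each of 11 tagged cultures and a line at the median. Medians of the members (6.84 to 8.18%) fall among those of the markers (5.17 to 10.5%).

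C1q levels across genotypes were compared next in macrophage-like cells, where C1qa and C1qb were higher than in WT in each mutant genotype. C1qa, the A chain, was at 2338, 2427 and 2434 CPM in WT, 3119, 3405 and 2970.2 CPM in Fgf23cKO, 3217 and 3148 CPM in Dmp1KO, and 3561, 3638 and 3668 CPM in Dmp1KO/Fgf23cKO. No mutant culture overlapped WT, and the Fgf23cKO and Dmp1KO cultures overlapped each other. Compared with WT, C1qa rose by 0.37 ± 0.05 in Fgf23cKO (log2 fold change ± SE, edgeR quasi-likelihood test with Benjamini-Hochberg adjustment, adjusted p = 2.11e-05), by 0.53 ± 0.06 in Dmp1KO (adjusted p = 6.48e-07) and by 0.54 ± 0.05 in Dmp1KO/Fgf23cKO (adjusted p = 1.87e-07). C1qb, the B chain, was at 2179, 2368 and 2338 CPM in WT, 2974, 3070.2 and 2795 CPM in Fgf23cKO, 3465 and 3430.5 CPM in Dmp1KO, and 3432, 3532 and 3455.5 CPM in Dmp1KO/Fgf23cKO, again with each mutant culture above WT. It rose by 0.33 ± 0.05, 0.70 ± 0.05 and 0.54 ± 0.05 in the same order (adjusted p = 4.27e-05, 1.12e-08 and 1.04e-07).

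C1qc, the C chain, did not follow in Dmp1KO. It was at 2181, 2257 and 2230 CPM in WT, 2496, 2663.5 and 2316 CPM in Fgf23cKO, 2143 and 2083 CPM in Dmp1KO, and 2807, 2857 and 2823.5 CPM in Dmp1KO/Fgf23cKO. C1qc rose by 0.14 ± 0.05 in Fgf23cKO (adjusted p = 0.0399, edgeR), a call that was lost without Fgf23cKO culture 2 (0.08), without WT culture 1 (0.11) or in thinned cells (0.05), and by 0.30 ± 0.05 in Dmp1KO/Fgf23cKO (adjusted p = 0.000135). In Dmp1KO its CPM was below every WT culture, while the fit with TMM scaling factors gave 0.05 ± 0.06 (adjusted p = 0.532). Between Dmp1KO/Fgf23cKO and Dmp1KO, C1qc was higher by 0.25 ± 0.06 (adjusted p = 0.00188), C1qa differed by 0.02 ± 0.06 (adjusted p = 0.851), and C1qb was lower by a log2 fold change of -0.16 ± 0.05 (adjusted p = 0.0249), although its cultures overlapped, the call was lost without Dmp1KO culture 2 (-0.12), and the difference was 0.01 when only library totals were used.

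The level of C1q in cluster 3, the cluster that all genotypes share, was lower in WT and Dmp1KO than in both genotypes with the Fgf23 deletion. C1qa was at 871 to 1079 CPM in WT, 2355 to 2607 CPM in Fgf23cKO, 1456 to 1524 CPM in Dmp1KO and 2577 to 2749 CPM in Dmp1KO/Fgf23cKO. The log2 fold changes of C1qa compared with WT were then 1.27 ± 0.07, 0.49 ± 0.08 and 1.31 ± 0.07 (adjusted p = 1.27e-10, 0.000209 and 3.25e-11, edgeR), and Dmp1KO/Fgf23cKO exceeded Dmp1KO by 0.82 ± 0.08 for C1qa, 0.53 ± 0.08 for C1qb and 0.87 ± 0.09 for C1qc (adjusted p = 1.89e-06, 0.000172 and 3.05e-06). With the restriction to this cluster, chosen after seeing the data, C1qb thus turned from lower to higher in Dmp1KO/Fgf23cKO compared with Dmp1KO.

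**Figure D3:**
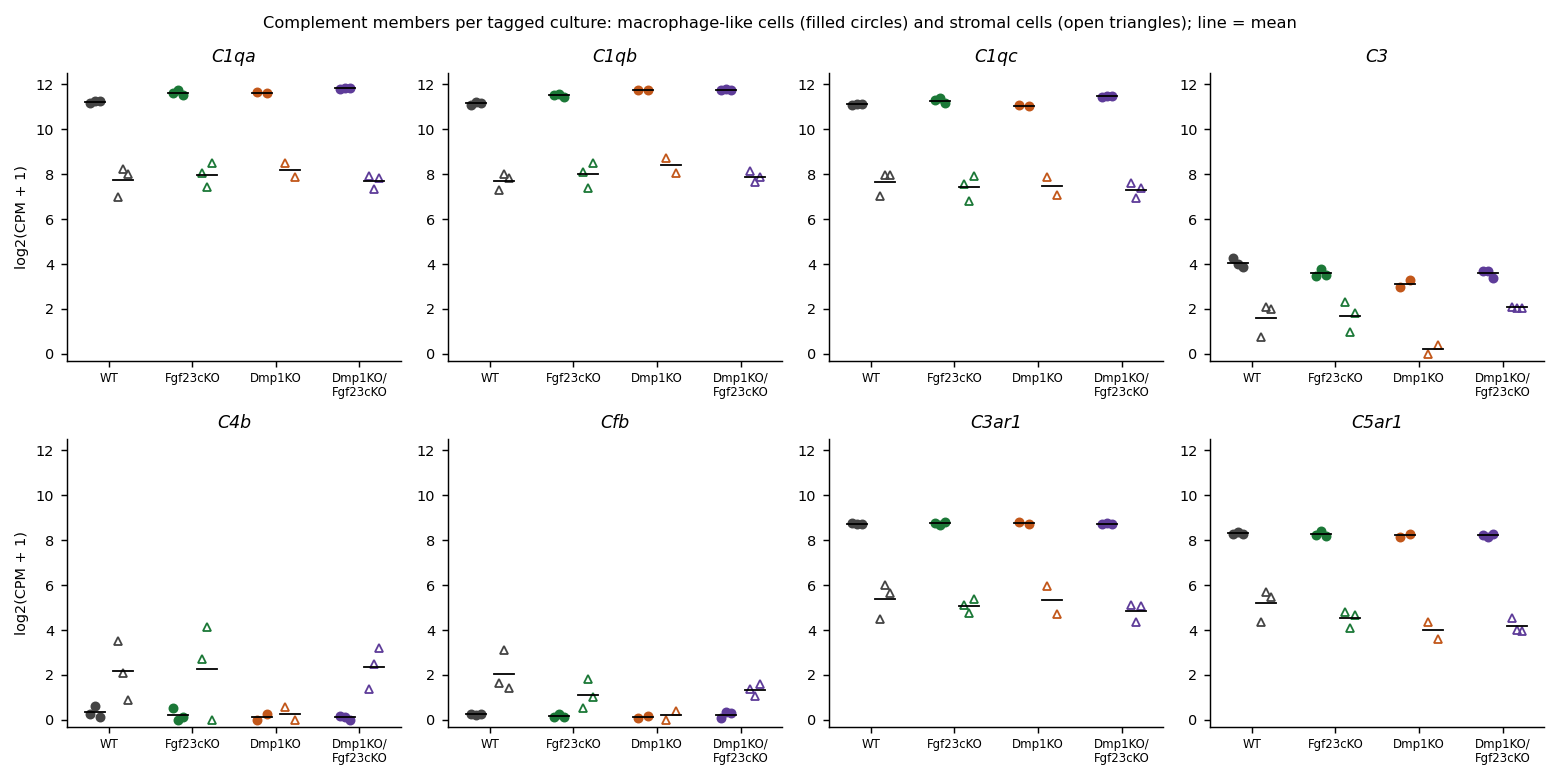
Level of each member per tagged culture on a log2(CPM + 1) scale, in macrophage-like cells (filled circles) and stromal cells (open triangles) of the 4 genotypes, with a line at the mean. The C1q chains and both receptors sit several log2 units higher in macrophage-like cells in each culture, and stromal C3 in Dmp1KO (0.0 and 0.331 CPM) lies below the other genotypes. That order rests on few UMIs, with 0 and 1 in the Dmp1KO cultures and 1 in WT culture 1 (0.702 CPM).

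The ratio between the chains also differed between the genotypes. The 3 chains are joined in 1 protein, and a ratio within a sum does not depend on scaling between cultures. In macrophage-like cells the ratio of C1qb to C1qc UMIs was 0.999, 1.05 and 1.05 in WT, 1.19, 1.15 and 1.21 in Fgf23cKO, 1.62 and 1.65 in Dmp1KO, and 1.22, 1.24 and 1.22 in Dmp1KO/Fgf23cKO. All WT cultures lay below all others and both Dmp1KO cultures lay above all others. Group means were 1.03 ± 0.03 (SD, n = 3), 1.18 ± 0.03 (SD, n = 3), 1.63 ± 0.02 (SD, n = 2) and 1.23 ± 0.01 (SD, n = 3). An exact permutation test of genotype over 92400 arrangements of the 11 cultures gave p = 6.49e-05, or 0.000731 adjusted over 15 ratios and compartments. In these cells 48.0 to 60.6% of all genes tested were called in the mutant genotypes compared with WT. Ratios of other gene pairs were not compared, so whether this separation is particular to C1q was not tested.

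Dmp1KO had the highest ratio in the other compartments as well, while WT and Fgf23cKO overlapped in cluster 3. In whole cultures, without any clustering, the means were 1.04, 1.21, 1.74 and 1.25 for WT, Fgf23cKO, Dmp1KO and Dmp1KO/Fgf23cKO (exact permutation test, adjusted p = 0.000731), and in cluster 3 they were 1.17, 1.19, 1.61 and 1.28 (exact permutation test, adjusted p = 0.00146). The ratio was higher in Dmp1KO than in WT in 7 of 7 clusters with at least 50 cells of both, and higher than in Dmp1KO/Fgf23cKO in 9 of 9. These clusters come from the same libraries, and whole cultures contain the macrophage-like cells, so they are not independent repeats. In cluster 7 the WT ratio rested on 55 C1qb and 34 C1qc UMIs. In stromal cells the means were 1.06, 1.49, 1.90 and 1.49 (exact permutation test, adjusted p = 0.00184), and the stromal ratio was above that of the macrophage-like cells in 9 of 11 cultures. The ratio in untagged cells was 1.04, 1.24, 1.66 and 1.19 in macrophage-like cells in the same order. In macrophage-like cells the C1qa to C1qb ratio was 1.05, 1.07, 0.923 and 1.04 (exact permutation test, adjusted p = 0.00659), lowest in Dmp1KO. In stromal cells it did not pass (exact permutation test, adjusted p = 0.379), and in cluster 3 the Dmp1KO cultures overlapped WT. Each ratio is from 1 droplet reaction per genotype, and the part of depth in it was not tested.

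**Figure D4:**
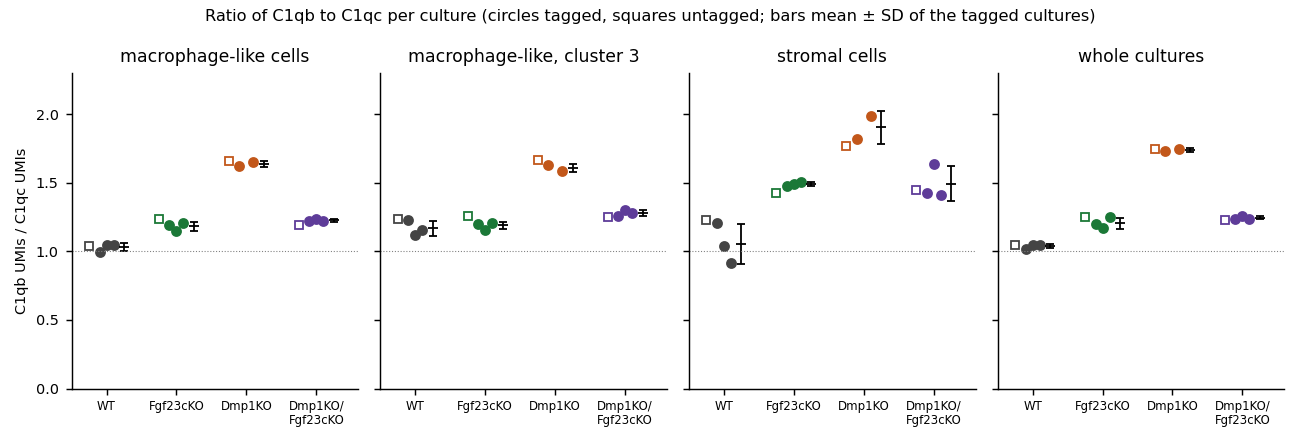
Ratio of C1qb to C1qc UMIs (y axis) per culture in macrophage-like cells, cluster 3, stromal cells and whole cultures, with filled circles for tagged cultures, open squares for untagged cells and bars for the mean ± SD of the tagged cultures. Dmp1KO is highest in all 4 panels, at means of 1.63, 1.61, 1.90 and 1.74.

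C3 was low in every genotype, and in macrophage-like cells of tagged cultures it was lower in the mutants than in WT. It was at 18.3, 15.1 and 13.5 CPM in WT, 10.2, 12.8 and 10.3 CPM in Fgf23cKO, 6.87 and 8.79 CPM in Dmp1KO, and 11.9, 12 and 9.27 CPM in Dmp1KO/Fgf23cKO. No tagged mutant culture reached the lowest WT culture, and both Dmp1KO cultures lay below all others. The untagged macrophage-like cells did not keep this order, at 14.7 CPM in WT, 17.1 CPM in Fgf23cKO, 4.74 CPM in Dmp1KO and 12.1 CPM in Dmp1KO/Fgf23cKO. In the tagged cultures C3 fell by 0.49 ± 0.14 in Fgf23cKO, by 0.84 ± 0.16 in Dmp1KO and by 0.50 ± 0.13 in Dmp1KO/Fgf23cKO on the log2 scale (adjusted p = 0.0116, 0.000234 and 0.00446, edgeR). The C3 call in Fgf23cKO was lost with untagged samples included (-0.26, adjusted p = 0.203, edgeR), and in thinned cells the C3 calls in both genotypes with the Fgf23 deletion were lost. Compared with Dmp1KO, Dmp1KO/Fgf23cKO was higher by 0.34 ± 0.15 (adjusted p = 0.0794), and this call was lost without Dmp1KO culture 2 (0.21), without Dmp1KO/Fgf23cKO culture 1 (0.29) or without culture 2 (0.28). The same call was lost in DESeq2 (0.34, adjusted p = 0.149), with a replicate block and in thinned cells.

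The C3 difference depended on which macrophage clusters were counted. With clusters 2, 4 and 6 included, C3 fell by 1.97 ± 0.19 in Dmp1KO compared with WT (adjusted p = 4.96e-07, edgeR) and was higher in Dmp1KO/Fgf23cKO than in Dmp1KO by 1.39 ± 0.18 (adjusted p = 1.14e-05). In cluster 3 alone, the log2 fold change of Dmp1KO compared with WT was -0.49 ± 0.40 (adjusted p = 0.451), with 27 C3 UMIs in Dmp1KO, and Dmp1KO/Fgf23cKO was at -0.66 ± 0.43 relative to Dmp1KO (adjusted p = 0.447). Fgf23cKO and Dmp1KO/Fgf23cKO were there at -1.225 ± 0.315 and -1.151 ± 0.321 compared with WT (adjusted p = 0.00598 and 0.00888, edgeR). Pooled over the Dmp1KO cultures, C3 was at 14.2 CPM in cluster 1 and 13.3 CPM in cluster 3, but at 2.4 CPM in cluster 10, 1.13 CPM in clusters 2 and 6, and 2.94 CPM in cluster 4. Cluster 1 gave 12.7 CPM in Fgf23cKO and 12.1 CPM in Dmp1KO/Fgf23cKO. In cycling cluster 8, C3 was at 15.2 CPM in WT, 18.5 CPM in Fgf23cKO and Dmp1KO/Fgf23cKO alike, and 1.59 CPM in Dmp1KO. Cycling cluster 11 gave 9.47 CPM in WT, 11.7 CPM in Dmp1KO/Fgf23cKO and 1.82 CPM in Dmp1KO. The low C3 of Dmp1KO cells was therefore uneven. It was near the level of both genotypes with the Fgf23 deletion in cluster 1, and low in the clusters made up mostly of Dmp1KO cells and in cycling cells. In cluster 3 the C3 estimate of Dmp1KO lay between WT and those genotypes, with no call compared with WT or Dmp1KO/Fgf23cKO.

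**Figure D5:**
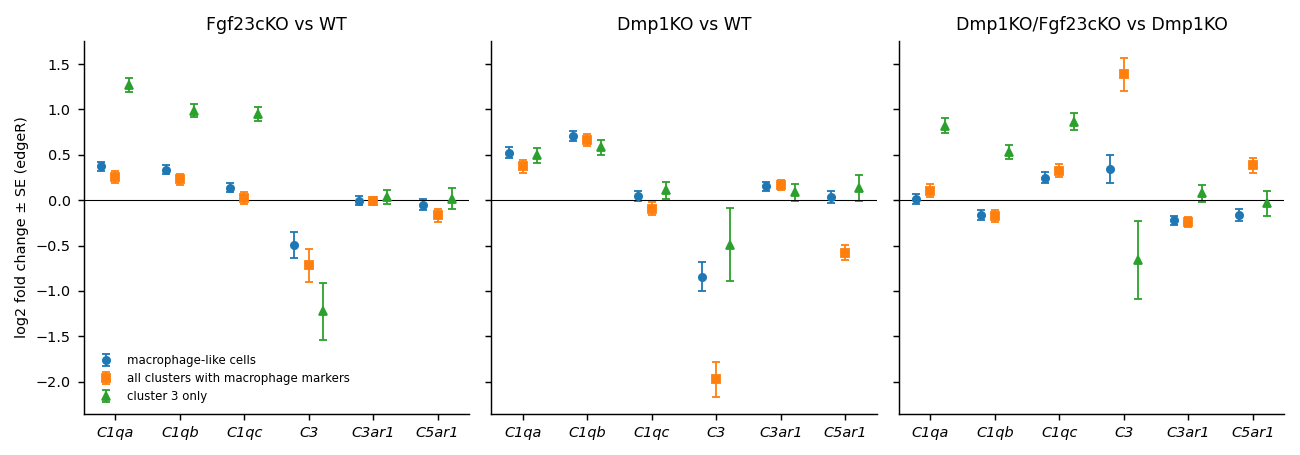
Log2 fold change ± SE (edgeR) of the 6 members tested, for Fgf23cKO compared with WT, Dmp1KO compared with WT and Dmp1KO/Fgf23cKO compared with Dmp1KO, in macrophage-like cells (circles), with all clusters that have macrophage markers (squares) and in cluster 3 only (triangles). C3 in Dmp1KO compared with WT moves from -0.84 to -1.97 and -0.49 across these definitions, and C5ar1 from 0.03 to -0.58 and 0.13.

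The receptors for C3a and C5a changed little in macrophage-like cells. C3ar1 was at 424.6 to 428.2 CPM in WT, 414.7 to 447.7 CPM in Fgf23cKO, 424.5 to 450.0 CPM in Dmp1KO and 418.3 to 428.4 CPM in Dmp1KO/Fgf23cKO, with overlap between all groups. The fit gave a rise of 0.15 ± 0.05 in Dmp1KO compared with WT (adjusted p = 0.0194, edgeR), which was lost without Dmp1KO culture 2 (0.09), as was the call of its interaction (-0.14 without that culture), and a fall of 0.22 ± 0.05 in Dmp1KO/Fgf23cKO compared with Dmp1KO (adjusted p = 0.00193). With library totals only, these log2 fold changes of C3ar1 were 0.034 and -0.05, and neither was called (adjusted p = 0.587 and 0.422, edgeR). Both calls were also lost in thinned cells and in cluster 3, and the rise at resolution 0.4. C5ar1 was at 304.4 to 324.4 CPM in WT, 290.7 to 336.2 CPM in Fgf23cKO, 284.5 to 308.6 CPM in Dmp1KO and 283.0 to 310.5 CPM in Dmp1KO/Fgf23cKO. Its log2 fold changes compared with WT were -0.05 ± 0.06, 0.03 ± 0.07 and -0.13 ± 0.06 (adjusted p = 0.559, 0.71 and 0.0756), and the last, past the threshold of 0.1, was lost without WT culture 2 (-0.11) or 3 (-0.13), Dmp1KO culture 2 (-0.12) or Dmp1KO/Fgf23cKO culture 1 (-0.14) or 2 (-0.10). With clusters 2, 4 and 6 included, C5ar1 in Dmp1KO was at 168.0 to 190.9 CPM and fell by 0.58 ± 0.08 compared with WT (adjusted p = 1.97e-05). Among Dmp1KO cells it was at 398.7 CPM in cluster 1, 113.2 CPM in cluster 2 and 92.1 CPM in cluster 6.

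C4b and Cfb were too rare for a firm statement by genotype. In stromal cells, C4b was at 10.5, 3.29 and 0.842 CPM in WT, 5.44, 16.3 and 0.0 CPM in Fgf23cKO, 0.475 and 0.0 CPM in Dmp1KO, and 1.56, 4.67 and 8.31 CPM in Dmp1KO/Fgf23cKO. Both Dmp1KO cultures and 1 Fgf23cKO culture lay below the WT range, and another Fgf23cKO culture lay above it. Untagged Dmp1KO stromal cells, with 4 C4b UMIs (1.64 CPM), lay within the WT range. Dmp1KO stromal cells held 1 C4b UMI and WT stromal cells 20, a CPM ratio of 0.046 with an exact 95% interval of 0.00111 to 0.287, and the counts for Cfb were 1 and 14, a ratio of 0.0656 (0.00155 to 0.431). These intervals cover counting error only. C4b in stromal cells did not pass the test in Dmp1KO compared with WT (adjusted p = 0.173, edgeR), and Cfb was below the filter on low counts there. In whole cultures, with 5 C4b UMIs in Dmp1KO and 32 in WT, the ratio was 0.0486 (0.0148 to 0.126), and for Cfb, with 10 and 23 UMIs, it was 0.135 (0.0574 to 0.295), both past the threshold (adjusted p = 0.0252 and 0.0115, edgeR). Without Dmp1KO culture 2, the calls of C4b (-3.69) and Cfb (-1.92) were lost. In these sums, fewer stromal cells and less RNA per cell cannot be told apart, and stromal cells were 3.43% of Dmp1KO and 5.87% of WT cells. Of all UMIs, on which the ratios are based, stromal cells held 5125044 of 135402729 in Dmp1KO and 4710295 of 42103258 in WT.

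Counted over the members, macrophage-like cells had 6 of 8 members past the filter on low counts, and C4b and Cfb did not pass it. In Fgf23cKO compared with WT, 4 of the 6 passed an adjusted p of 0.1, 3 higher and 1 lower, where 48.0% of all genes tested did. In Dmp1KO, 4 passed, 3 higher and 1 lower (60.6% of all genes), and in Dmp1KO/Fgf23cKO, 5 passed, 3 higher and 2 lower (56.7%). Between Dmp1KO/Fgf23cKO and Dmp1KO, 5 passed, 2 higher and 3 lower (51.3%), and the interaction of the 2 gene deletions passed for 4 (50.6%). These counts of members are read against that background, in which a large share of all genes was called in each comparison. The C5ar1 call between Dmp1KO/Fgf23cKO and Dmp1KO (-0.163, adjusted p = 0.0514, edgeR) was lost without Dmp1KO culture 3 (-0.125) or Dmp1KO/Fgf23cKO culture 2 (-0.128). It was also lost with untagged samples (-0.081), with a filter on cells (-0.085), at resolution 1.2 (-0.073), in cluster 3, with a replicate block and in thinned cells. In stromal cells, 0 of 6 members tested passed in Fgf23cKO (15.4% of all genes), where 1 was under an unadjusted p of 0.05 in edgeR and 0 passed in DESeq2. There, 1 passed in Dmp1KO (24.8%) and 1 in Dmp1KO/Fgf23cKO (20.1%), in both cases C5ar1, lower by a log2 fold change of -1.45 ± 0.41 and -1.22 ± 0.34 (adjusted p = 0.0321 and 0.0347). The C5ar1 call in Dmp1KO was lost without WT culture 3 (-1.25) or Dmp1KO culture 3 (-1.09), and that in Dmp1KO/Fgf23cKO without WT culture 2 (-1.02), WT culture 3 (-1.02), Dmp1KO/Fgf23cKO culture 2 (-1.12) or culture 3 (-1.10). Whether these C5ar1 UMIs came from stromal cells was not tested. Between Dmp1KO/Fgf23cKO and Dmp1KO 0 passed (10.6%), with 1 under an unadjusted p of 0.05 and 0 in DESeq2, and for the interaction 0 passed (18.3%), with 0 under an unadjusted p of 0.05 and 0 in DESeq2.

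In whole cultures all 8 members were tested. In Fgf23cKO 2 fell (45.1% of all genes called), C3 and C5ar1, the latter lost without WT culture 2 (-0.18). In Dmp1KO 4 rose and 4 fell (64.5%), with C1qa at 0.69 ± 0.09, C1qb at 0.99 ± 0.09 and C3 at -1.94 ± 0.24 (adjusted p = 6.71e-05, 6.78e-06 and 5.71e-05, edgeR), and the call of C5ar1 was lost without Dmp1KO culture 2 (-0.28). In Dmp1KO/Fgf23cKO 3 rose and 2 fell (51.8%), of which C1qc was lost without WT culture 1 (0.15), C3 without WT culture 2 (-0.44) or Dmp1KO/Fgf23cKO culture 3 (-0.53), and C5ar1 without WT culture 2 (-0.17) or Dmp1KO/Fgf23cKO culture 2 (-0.21). Between Dmp1KO/Fgf23cKO and Dmp1KO 3 rose and 3 fell (62.7%). Of these, C1qa was lost without Dmp1KO culture 2 (-0.25) or 3 (-0.25) or Dmp1KO/Fgf23cKO culture 2 (-0.21), and C4b (3.84) and Cfb (1.84) were lost without Dmp1KO culture 2. The interaction passed for 6 (55.4%). C3 was at 14.8, 16.7 and 11.6 CPM in WT, 7.66, 11.1 and 7.95 CPM in Fgf23cKO, 2.32 and 3.78 CPM in Dmp1KO, and 10.9, 9.77 and 9.05 CPM in Dmp1KO/Fgf23cKO. Both Dmp1KO cultures lay below all others, and Dmp1KO/Fgf23cKO was higher than Dmp1KO by 1.35 ± 0.23 (adjusted p = 0.000692). The scaling matters in whole cultures, where TMM factors were 0.804 to 0.846 in Dmp1KO and 1.01 to 1.05 in WT. With library totals only, the median of all genes moved by -0.33 in Dmp1KO compared with WT and 26.8% instead of 50.4% of the calls were higher, and C1qc turned from 0.24 to -0.06. The corresponding shares of higher calls between Dmp1KO/Fgf23cKO and Dmp1KO were 76.4% instead of 43.4%, and C1qa there turned from -0.23 to 0.14.

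The other genes of the cascade were read from a list of 44. Among them, 18 were tested in macrophage-like cells, and in Dmp1KO compared with WT 5 were higher and 9 lower (60.6% of all genes tested were called), with a median log2 fold change of -0.37 where the median of all genes was 0.00. The corresponding counts were 3 higher and 9 lower in Fgf23cKO (48.0% of all genes), and 2 higher and 8 lower in Dmp1KO/Fgf23cKO (56.7%). Vsig4, a macrophage receptor for C3 fragments, was at 150.4 to 193.0 CPM in WT, 234.1 to 302.5 CPM in Fgf23cKO, 17.8 to 20.3 CPM in Dmp1KO and 80.5 to 105.7 CPM in Dmp1KO/Fgf23cKO, with no overlap between any of the groups. It rose by 0.56 ± 0.11 in Fgf23cKO, and in Dmp1KO it fell by 3.06 ± 0.16 (adjusted p = 0.00078 and 9.45e-11, edgeR). Cfp, or properdin, which stabilises the alternative pathway convertase, fell by 1.39 ± 0.12 in Dmp1KO, from 255.6 to 285.9 CPM in WT to 91.5 to 100.0 CPM. Fcna, a ficolin that starts the lectin pathway, fell by 1.17 ± 0.20, and C5ar2, the other C5a receptor, by 1.05 ± 0.16.

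Cd55, which speeds the decay of convertases, was at 0.0 to 0.292 CPM in Dmp1KO and 2.51 to 5.07 CPM in WT, a log2 fold change of -4.71 ± 0.59 from few UMIs. Itgax, the alpha chain of complement receptor CR4, rose by 2.17 ± 0.17 in Dmp1KO, from 11.7 to 19.9 CPM in WT to 63.2 to 70.6 CPM, and in cluster 3 alone it fell by 1.12 ± 0.30 (adjusted p = 0.0129). Vsig4 fell in cluster 3 as well, by 4.31 ± 1.01 (adjusted p = 0.00463). Of 18 genes, 7 were higher and 5 lower in Dmp1KO/Fgf23cKO compared with Dmp1KO (51.3% of all genes called), including Vsig4 at 2.07 ± 0.16, Fcna at 1.36 ± 0.18, Cfp at 0.66 ± 0.11 and Itgax at -3.15 ± 0.17. In stromal cells, 22 genes of the list were tested. C2, the protease of the classical pathway convertase, was at 5.62 to 11 CPM in WT and 20.9 to 28.8 CPM in Dmp1KO and rose by 1.61 ± 0.30 (adjusted p = 0.00429). In all, 2 of the 22 were higher and 4 lower in Dmp1KO compared with WT (24.8% of all genes called), and Vsig4, C5ar2 and Cfp, which fell, and Itgax, which rose, moved in the same direction in macrophage-like cells. In WT stromal cells Vsig4 was at 4.39 to 17.7, C5ar2 at 2.95 to 5.62, Cfp at 18.3 to 36.2 and Itgax at 0.421 to 3.29 CPM. Each was lower there than in WT macrophage-like cells (C5ar2 at 15.4 to 17.1 CPM). Whether the UMIs of these genes in stromal cells came from these cells was not tested.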

How the data were processed

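Single-cell RNA-Seq libraries were made from tagged cultures of 4 genotypes with the 10x 3′ kit, 1 reaction per genotype. The authors deposited counts of UMIs per gene and cell, made with Cell Ranger 7.0.1 and demultiplexed by tag, with multiplets removed by tag. The submitters' processing notes name the build mm10, Cell Ranger and Seurat. Multiplets within a culture remain. Counts of a 3′ assay do not scale with transcript length, and values are CPM of all UMIs of the summed cells.

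Cells were clustered with Seurat 5.3.0 and sctransform 0.4.2 in R 4.3.3 (3000 variable genes without complement genes, 30 principal components, resolution 0.8, no filter on cells), and a cluster was named only from marker lists. Counts were summed per culture and class over at least 10 cells and fitted in edgeR 4.0.16 (quasi-likelihood test, TMM, filterByExpr, all 11 tagged cultures together), with Benjamini-Hochberg adjustment over all genes tested and a threshold of 0.1. The SE is the log2 fold change divided by the square root of F. Chain ratios were tested by an exact permutation test of the sum of squares between the 4 genotypes, which does not test any single genotype against another. The classes without clusters 2, 4 and 6, and the members and lists, were chosen with earlier results of these data known. All 8 members are named, and of the list of 44 genes up to 10 past the threshold per comparison and class were eligible. Named neighbours are the 3 highest correlations per member among genes of at least 10 CPM in a cluster. Some genes that these rules name are not reported here.

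On simulated counts for Dmp1KO compared with WT, with 200.0 genes changed, 76% of 2-fold and 95% of 4-fold changes were recovered in macrophage-like cells (13071 genes), 46% and 79% in stromal cells (12440.0 genes), and 73% and 82% in whole cultures (15502 genes), and 10.1 to 11.4% of calls were false. Replicate numbers did not pair the cultures, since 0 of 15 same-number pairs in macrophage-like cells had deviations correlated above 0.1, with 1 of 15 in stromal cells and 4 of 15 in whole cultures. Alternatives were RLE factors, library totals, no filter on low counts, DESeq2 1.42.0, thinned cells, other resolutions and class definitions, sums of at least 20 cells, a filter on cells, untagged samples included, a replicate block, an adjusted p of 0.05 and each culture left out. The remaining values came from scripts in Python 3.11.15 (scipy 1.17.1).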

Additional observations from a re-analysis of the deposited data

Results flagged for a closer look

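Of 72 groups of 4 samples (8 members in 3 genotypes, in macrophage-like cells, stromal cells and whole cultures, tagged and untagged samples together), 6 held a sample whose gap to the others was over Dixon's 95% limit, a rule that flags about 1 group in 20 by chance. C3 in macrophage-like cells of Dmp1KO/Fgf23cKO culture 3 was at 9.27 CPM and the others at 11.9 to 12.1 CPM. Cfb in macrophage-like cells of the untagged WT sample was at 0.0 CPM, with 0 UMIs, and the others at 0.175 to 0.195 CPM, with 1 or 2 UMIs each. At the depth of the untagged sample, 3 UMIs would be 1.91 CPM. In stromal cells, C3 of the untagged Dmp1KO/Fgf23cKO sample was at 0.799 CPM (2 UMIs; others 3.15 to 3.31 CPM) and Cfb of WT culture 2 at 7.68 CPM (7 UMIs; others 0.966 to 2.11 CPM). In whole cultures, C3ar1 of Fgf23cKO culture 3 was at 363.9 CPM (others 302.7 to 307.9 CPM) and that of the untagged Dmp1KO/Fgf23cKO sample at 238.5 CPM (others 321.4 to 336.7 CPM).

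The effect of the Fgf23 deletion differed between WT and Dmp1KO backgrounds by the interaction test (edgeR, adjusted p under the threshold) for several members. In macrophage-like cells the log2 difference of the effects was -0.36 for C1qa, -0.49 for C1qb, 0.83 for C3 and -0.22 for C3ar1. In whole cultures it was -0.39 for C1qa, -0.65 for C1qb, 2.08 for C3, -0.43 for C3ar1, 0.36 for C5ar1 and 3.14 for Cfb. The call of C5ar1 was lost without WT culture 2 (0.25), Dmp1KO culture 2 (0.29) or Dmp1KO culture 3 (0.35). With library totals only, the calls of C3ar1 in macrophage-like cells (-0.071) and of C1qa (-0.073) and C3ar1 (-0.108) in whole cultures were lost. In thinned cells, the calls of C3ar1 in macrophage-like cells (-0.197) and of C1qa (-0.242) and C3ar1 (-0.174) in whole cultures were lost. With all clusters that have macrophage markers the call of C1qa was lost (-0.153), and in cluster 3 those of C3 (0.563) and C3ar1 (0.041). In whole cultures, Cfb rested on few UMIs, with 10 in Dmp1KO and 23 in WT. Its call (1.688) and that of C5ar1 (0.337) were lost with untagged samples included. These values rest on 1 droplet reaction per genotype, and genotype and reaction cannot be told apart.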

How the results depend on the processing

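The replicate block changed the count of members called between Dmp1KO/Fgf23cKO and Dmp1KO in macrophage-like cells from 5 to 3 and moved no other count of members by over 1.5 times; the numbers are not known to pair cultures. That count was also 3 with library totals, with an adjusted p of 0.05 and in cluster 3 only, and 1 in thinned cells. Thinning gave 2 members for Fgf23cKO and 3 for Dmp1KO/Fgf23cKO compared with WT, and cluster 3 gave 2 for Dmp1KO and 2 for the interaction. In stromal cells, counts for Dmp1KO compared with WT were 2 with untagged samples, DESeq2 or resolution 0.4, 5 with no filter on low counts and 0 in thinned cells. Other stromal counts became 1 for Fgf23cKO (no filter, resolution 0.4), 3 (resolution 0.4) and 0 (thinned) for Dmp1KO/Fgf23cKO compared with WT, 1 (untagged samples, resolution 0.4) and 2 (no filter) between Dmp1KO/Fgf23cKO and Dmp1KO, and 2 (no filter) and 1 (resolution 0.4) for the interaction. In whole cultures, library totals gave 4 for Fgf23cKO and thinning 5 for Dmp1KO. Shares of all genes called under these settings are not given here, so a changed count is not read as particular to the members. In thinned cells the difference between macrophage-like and stromal cells was 3.29 for C3 and 0.0 for C4b and Cfb.

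Log2 fold changes that changed sign, where the main fit or the alternative gave a call, were those of C1qb (0.011 with library totals, 0.53 in cluster 3), C5ar1 (0.007 with library totals, 0.25 at resolution 0.4, 0.38 with all macrophage-marker clusters), C3ar1 (0.076) and C3 (-0.66), both in cluster 3, between Dmp1KO/Fgf23cKO and Dmp1KO in macrophage-like cells. In Dmp1KO compared with WT, C1qc was at -0.14 and C5ar1 at -0.52 at resolution 0.4, and C5ar1 at -0.58 with all macrophage-marker clusters. For the interaction, C5ar1 was at 0.35 and 0.55 under the same settings and C3ar1 at 0.041 in cluster 3, and C5ar1 in Dmp1KO/Fgf23cKO compared with WT was at 0.10 in cluster 3. In whole cultures, C1qc was at -0.061 (library totals) and -0.074 (thinned) in Dmp1KO compared with WT and at 0.35 and 0.27 between Dmp1KO/Fgf23cKO and Dmp1KO, where C1qa was at 0.14 with library totals. The cause of these changes was not tested. Library totals and the restriction to cluster 3 were chosen after seeing the data.

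Leaving out 1 culture gave 3 to 4, 3 to 4, 4 to 5, 3 to 5 and 3 to 5 members in macrophage-like cells, 0 to 1, 0 to 3, 0 to 2, 0 to 1 and 0 to 2 in stromal cells, and 2 to 3, 5 to 8, 3 to 5, 3 to 6 and 5 to 7 in whole cultures, for Fgf23cKO, Dmp1KO and Dmp1KO/Fgf23cKO compared with WT, Dmp1KO/Fgf23cKO compared with Dmp1KO and the interaction. Shares of all genes called are not given beside these counts either, and the counts are read with the same limit. The log2 difference in the C1qb to C1qc ratio between Dmp1KO and WT was 0.66 (0.64 to 0.67). Depth limits C3, C4b and Cfb, with 2390.0, 197 and 96 UMIs.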
